A study of Arabidopsis thaliana with 6 samples.

Results

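Expansins are small secreted proteins that loosen the plant cell wall without cutting it, by releasing the contacts between cellulose and the other wall polymers. They act at acid pH, so their effect on growth depends on the plasma membrane proton pumps that acidify the wall. Alpha-expansins (EXPA) are the main form in Arabidopsis, beta-expansins (EXPB) are best known from grass pollen, and the expansin-like A and B proteins (EXLA and EXLB) share the fold, while their action on walls is not well established. In the root, expansins are known chiefly from cells that elongate, from root hairs and from the tissue that gives way to a lateral root.

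The expansin superfamily is described here as 35 genes, of the 37336 genes listed, chosen by a rule on identifiers that used no measured values. Earlier results of these data were known when the genes were chosen. The 35 are the 26 alpha-expansins, 5 of the beta-expansins, 3 expansin-like A genes and 1 expansin-like B gene, and all 35 were found in RefSeq's TAIR10.1 gene table. They were measured by RNA-seq in 3 *bravo-2* and 3 WT libraries of cells sorted to obtain the quiescent centre (QC). The *bravo-2* line lacks a working BRAVO, an R2R3-MYB factor of the QC, and both genotypes are in the Col-0 background, were grown for 5 days and carry GFP under the WOX5 promoter, by which the cells were sorted from root protoplasts. The labels give 3 replicates per genotype but do not say whether they came from separate plantings or sorts, so the p-values measure the spread between these libraries only.

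The 6 libraries held 10990217 to 14425249 estimated counts. Levels are given as CPM, a gene's estimated counts relative to the library total after TMM scaling, and 3 counts, the smallest number taken as detected, equal 0.208 to 0.273 CPM before that scaling. These floors account for counting error alone, because PCR copies are not separate molecules. BRAVO itself measured 13.9, 10.4 and 11.8 CPM in *bravo-2* replicates 1, 2 and 3, against 13.4, 37.8 and 60.9 CPM in WT replicates 1, 2 and 3, so that WT replicate 1 lay within the mutant range. All 6 QC markers examined (WOX5, AGL42, PLT1, PLT2, SCR and BRAVO) were present in every library, with sums of 3123, 984 and 482 CPM in *bravo-2* against 598, 1707 and 1714 CPM in WT. Transcripts of 9 root hair markers were also abundant, with sums of 128, 2067 and 5271 CPM in *bravo-2* against 6823, 3160 and 4702 CPM in WT. *bravo-2* replicate 1 therefore stood apart with the highest QC sum and the lowest root hair sum, and *bravo-2* replicate 3 and WT replicate 1 had the 2 lowest QC sums. In every library other than *bravo-2* replicate 1 the root hair sum was above the QC sum, so the levels given here cannot be assigned to QC cells alone. In such bulk libraries fewer cells of a type and less RNA per cell cannot be told apart.

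The promoters of EXPA7 and EXPA18, the most abundant expansins in 5 of the 6 libraries, are shown first. Both genes are expressed in root hair cells, and the root hair element (RHE) is a short promoter sequence known from genes of that cell type. A search of the 250 bases before the start of each gene, on both strands, found the RHE in 2 of the 34 expansin promoters searched, EXPA7 and EXPA18, and in 207 of 27443 promoters of protein-coding genes (0.754%). Among the 9 root hair markers it was found in 2, PRP3 and LRX1. EXPA7 and EXPA18 were picked for this search beforehand as root hair genes, and the pattern may itself have been drawn from such promoters. Their 2 matches are therefore no independent enrichment over the share of all promoters. The 150 bases before each start are printed 5′ to 3′ from RefSeq's TAIR10.1, with the RHE in capitals. EXPA7 (AT1G12560) lies on the plus strand of chromosome 1 and its stretch runs from 4276355 to 4276504, while EXPA18 (AT1G62980) lies on the plus strand of the same chromosome and its stretch runs from 23331413 to 23331562.
EXPA7: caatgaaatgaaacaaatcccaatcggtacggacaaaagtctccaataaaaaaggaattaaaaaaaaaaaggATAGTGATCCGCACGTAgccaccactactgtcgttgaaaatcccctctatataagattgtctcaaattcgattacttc
EXPA18: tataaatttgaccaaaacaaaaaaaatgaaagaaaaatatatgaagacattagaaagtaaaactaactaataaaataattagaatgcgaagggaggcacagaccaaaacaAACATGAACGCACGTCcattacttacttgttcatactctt

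The EXPA7 match spans 17 bases, from 78 to 62 bases before the start, and the EXPA18 match spans 16 bases, from 40 to 25 bases before it. Both were on the strand of the gene. The letters CGTGCG, read on the opposite strand, lie inside both matches, and occurred in 3 of the 34 expansin promoters (EXPA7, EXPA18 and EXPB3) and in 1.57% of all promoters. The related CGTGTG was found in EXPA1, EXPA2, EXPA6 and EXLA2, 4 of 34, and in 5.37% of all promoters. CACGTG was found in EXPB2 alone of the 34 and in 6.49% of all promoters, and TATAAA in 19 of the 34 and in 47.4% of all promoters. These matches are descriptions of letters within the window, and no binding was measured.

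Of the 35 genes, 23 had more than 3 counts in at least 1 library, 2 had 1 count at most and 10 had none. Compared per length, as TPM (RSEM's measure of transcript abundance, adjusted for gene length and not TMM-scaled), the family summed to 1513, 1438 and 2317 TPM in *bravo-2* replicates 1, 2 and 3 and to 2997, 2294 and 2920 TPM in WT replicates 1, 2 and 3. All 3 WT sums exceeded those of *bravo-2* replicates 1 and 2, while *bravo-2* replicate 3 lay between the lowest WT sum and the other two. A few genes made up most of it, since the 4 most abundant members of each library held 80% to 91% of the sum.

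EXPA18 was the most abundant expansin and EXPA7 came next in every library other than *bravo-2* replicate 1. The pair together took 0.623%, 59.7% and 71.6% of the family's TPM in *bravo-2*, against 77.0%, 67.3% and 78.7% in WT. EXPA18 was above EXPA7 in all 6 libraries, with a ratio of TPM between 1.71 and 3.42, the highest being that of *bravo-2* replicate 1, where it rested on 62 and 16 counts. In that library EXPA4, EXPA15 and EXPA9 led instead, at 389, 388 and 347 TPM. Without the pair, the remaining expansins summed to 1503, 580 and 659 TPM in *bravo-2* and to 689, 749 and 623 TPM in WT. *bravo-2* replicate 1 was thus the highest by far for these remaining genes. For the whole family it lay just above the lowest, *bravo-2* replicate 2, and the order of those close sums may depend on the scaling.

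**Figure D1:**
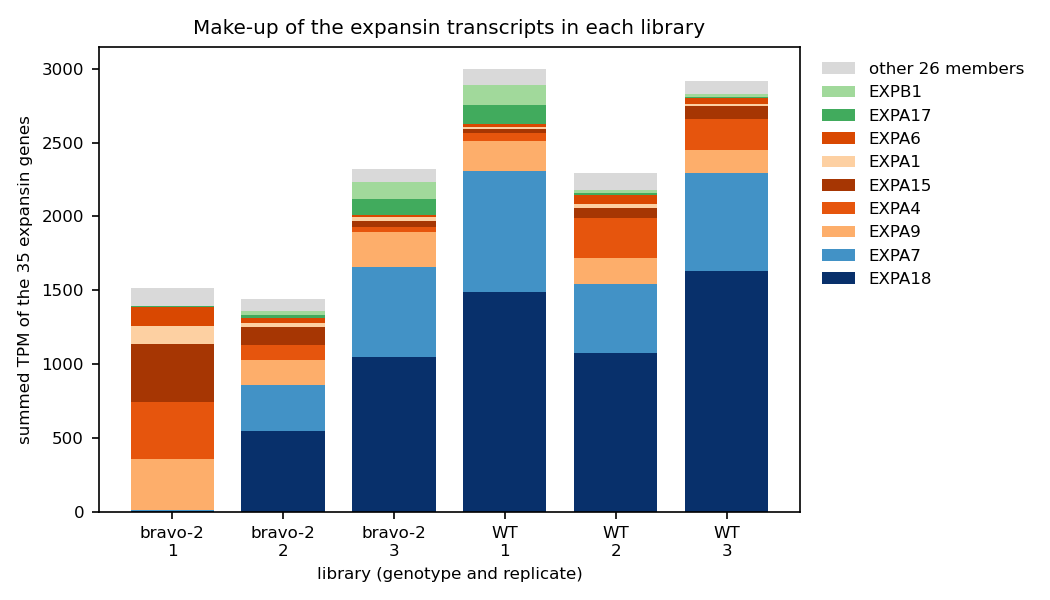
Stacked bars give the summed TPM of the 35 expansin genes in each library, *bravo-2* replicates 1 to 3 at the left and WT replicates 1 to 3 at the right, with 9 genes coloured singly and the other 26 together. EXPA18 and EXPA7 (blue) fill 59.7% to 78.7% of every bar except that of *bravo-2* replicate 1, where they fill 0.623%.

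The comparison of *bravo-2* with WT asks which expansins differ between the genotypes in the sorted cells. edgeR was run on genes averaging 4 CPM or more in either genotype, which left 15739 genes and 16 of the 35 expansins, and a log2 fold change is *bravo-2* over WT, with its standard error (SE). None of the 16 expansins passed an adjusted p of 0.05 in edgeR, where 0 of all genes tested (0%) did so, and none passed with DESeq2, where 13 of all genes did (0.0826%), or with limma, where 0 did (0%). DESeq2 gave no p for EXPA11, which was therefore not judged by it. At an unadjusted p under 0.05 there were 2 expansins in edgeR, EXPA1 (higher in *bravo-2*) and EXLB1 (lower), beside 125 of all genes tested (0.794%). There were also 2 in DESeq2, beside 195 of all genes (1.24%), and 2 in limma, beside 154 (0.978%). The edgeR number of expansins was 0 without WT replicate 2 or WT replicate 3, 1 without *bravo-2* replicate 1 or 2 and 2 without WT replicate 1. It was 4 without *bravo-2* replicate 3, where EXPA1, EXPA11 and EXPA15 were those among the 16. The filter was applied anew after each library was left out, so an expansin outside the 16 was counted there too. Over all genes the number was 119 of 15831, 97 of 15746 and 75 of 15725 without WT replicate 1, 2 and 3 in turn. It was 345 of 15606, 85 of 15767 and 873 of 15873 without *bravo-2* replicate 1, 2 and 3 in turn. The log2 fold changes ran from -2.29 to 2.26, 6 above 0 and 10 below, with a median of -0.11 where the median of all genes tested was 0.04. This balance changed when single libraries were left out, although the genes passing the filter changed as well. Without *bravo-2* replicate 2, 10 were above 0 and 7 below, of 17 tested. The numbers were 9 and 7 of 16 without *bravo-2* replicate 3, and 9 and 6 of 15 without WT replicate 1. With all 6 libraries the median size without sign of the 16 was 0.53 against 0.26 for all genes tested, with a median standard error of 0.82 against 0.60. After Benjamini-Hochberg adjustment over all genes tested, the edgeR quasi-likelihood p of every one of the 16 expansins was 1.00. An exact permutation test (two-sided) was added for single genes, and with 3 libraries against 3 its smallest possible p is 0.10.

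**Figure D2:**
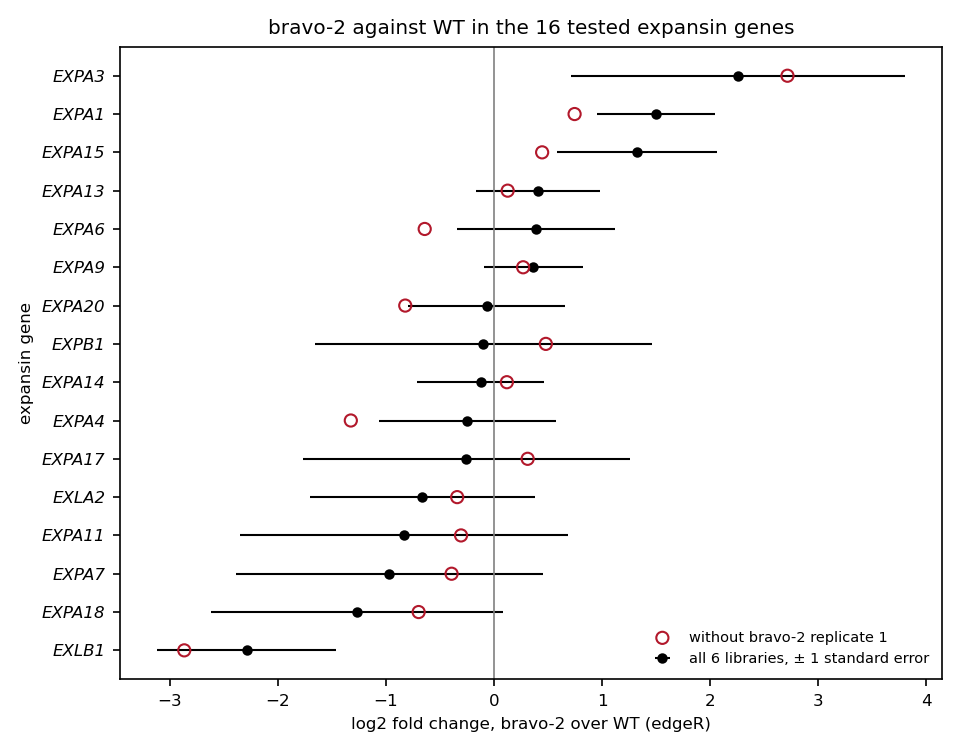
Black points are the log2 fold changes of *bravo-2* over WT for the 16 tested expansins (edgeR) with bars of 1 standard error, ordered by size, and open red circles are the same values without *bravo-2* replicate 1. They run from -2.29 for EXLB1 to 2.26 for EXPA3, and without that replicate the value of EXPA1 is 0.75 and that of EXPA18 is -0.70.

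The root hair pair was lower on average in *bravo-2*, with a spread in the mutant far wider than that in WT. EXPA18 measured 4.46, 418 and 1026 CPM in *bravo-2*, against 1365, 787 and 1343 CPM in WT. *bravo-2* replicate 1 was almost without it, replicate 2 was below all WT libraries and replicate 3 lay above the lowest of them, so the genotypes overlapped. Its log2 fold change was -1.27 (SE 1.35, exact permutation p = 0.20), and it was -0.70 without *bravo-2* replicate 1 and -2.47 without *bravo-2* replicate 3. EXPA7 measured 1.15, 210 and 531 CPM in *bravo-2*, against 667, 302 and 485 CPM in WT. Its order of libraries was nearly that of EXPA18, with *bravo-2* replicate 3 here above 2 of the WT libraries. The log2 fold change was -0.97 (SE 1.42, exact permutation p = 0.30), and -0.39 without *bravo-2* replicate 1 and -2.21 without *bravo-2* replicate 3. The highest and lowest *bravo-2* libraries differed 230-fold for EXPA18 and 462-fold for EXPA7, where the WT libraries differed 1.73-fold and 2.21-fold. With limma on log2(CPM + 1) the log2 differences were -3.09 for EXPA18 and -2.89 for EXPA7, and neither passed. The 9 root hair markers were likewise all lower in *bravo-2* in the fit, 0 of them at an adjusted p under 0.05, with a median log2 fold change of -0.97. All tested markers were lower too for lateral root cap and columella (4, median -0.74) and endodermis (4, median -1.07). The same held for stele and xylem (2, median -0.51) and non-hair epidermis (2, median -0.28). Of the QC markers 4 were higher and 2 lower, and the cortex marker was higher, at 0.06. The 2 lower QC markers were WOX5 (-0.11) and BRAVO (-1.635), which is itself the gene mutated in *bravo-2*. The summed level of the root hair markers was lowest in *bravo-2* replicate 1 and highest in WT replicate 1, as for EXPA18 and EXPA7. The part of any marker in the difference between the genotypes was not tested.

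EXPA17, a target of auxin signalling in lateral root formation, and EXPB1, a beta-expansin, split the libraries in another way. EXPA17 measured 1.08, 10.4 and 90.4 CPM in *bravo-2*, against 105, 10.7 and 5.80 CPM in WT. EXPB1 measured 0.288, 27.7 and 135 CPM in *bravo-2*, against 140, 16.4 and 18.1 CPM in WT. For both genes 1 library of each genotype, *bravo-2* replicate 3 and WT replicate 1, stood far above the others, and *bravo-2* replicate 1 was the lowest. The log2 fold changes of -0.26 for EXPA17 (SE 1.52) and -0.10 for EXPB1 (SE 1.56) were accordingly small beside their errors. Their sign turned without any 1 of 3 libraries. The values were 2.08 for EXPA17 and 1.69 for EXPB1 without WT replicate 1, 0.31 and 0.48 without *bravo-2* replicate 1, and 0.17 and 0.21 without *bravo-2* replicate 2, while without *bravo-2* replicate 3 they were -2.85 and -2.09. EXPA14, which like EXPA17 has been placed under auxin control in lateral root formation, did not share this pattern and was low throughout, at 7.26, 19.2 and 8.05 CPM in *bravo-2* against 12.8, 7.20 and 17.5 CPM in WT (log2 fold change -0.12, SE 0.58, and between -0.71 and 0.20 with each library left out).

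EXPA11 and EXLA2 also had their highest values in WT replicate 1 and, next, in *bravo-2* replicate 3. EXPA11 measured 0.431, 0.254 and 11.4 CPM in *bravo-2*, of which the first 2 are 6 and 3 counts, against 17.6, 1.78 and 2.06 CPM in WT. EXLA2, an expansin-like gene studied in the response to a fungal pathogen, measured 4.75, 2.12 and 22.2 CPM in *bravo-2*, against 33.4, 8.14 and 4.41 CPM in WT. Both were lowest in *bravo-2* replicate 2, and their log2 fold changes of -0.83 (SE 1.52) and -0.66 (SE 1.04) were within their errors. Without WT replicate 1 EXPA11 fell below the filter and EXLA2 had a value of 0.66. Without *bravo-2* replicate 3 EXPA11 was -4.36 (unadjusted p = 0.0196 in edgeR) and EXLA2 was -2.17. With EXPA7, EXPA17, EXPA18 and EXPB1, 6 of the 16 tested expansins thus had WT replicate 1 as their highest library.

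**Figure D3:**
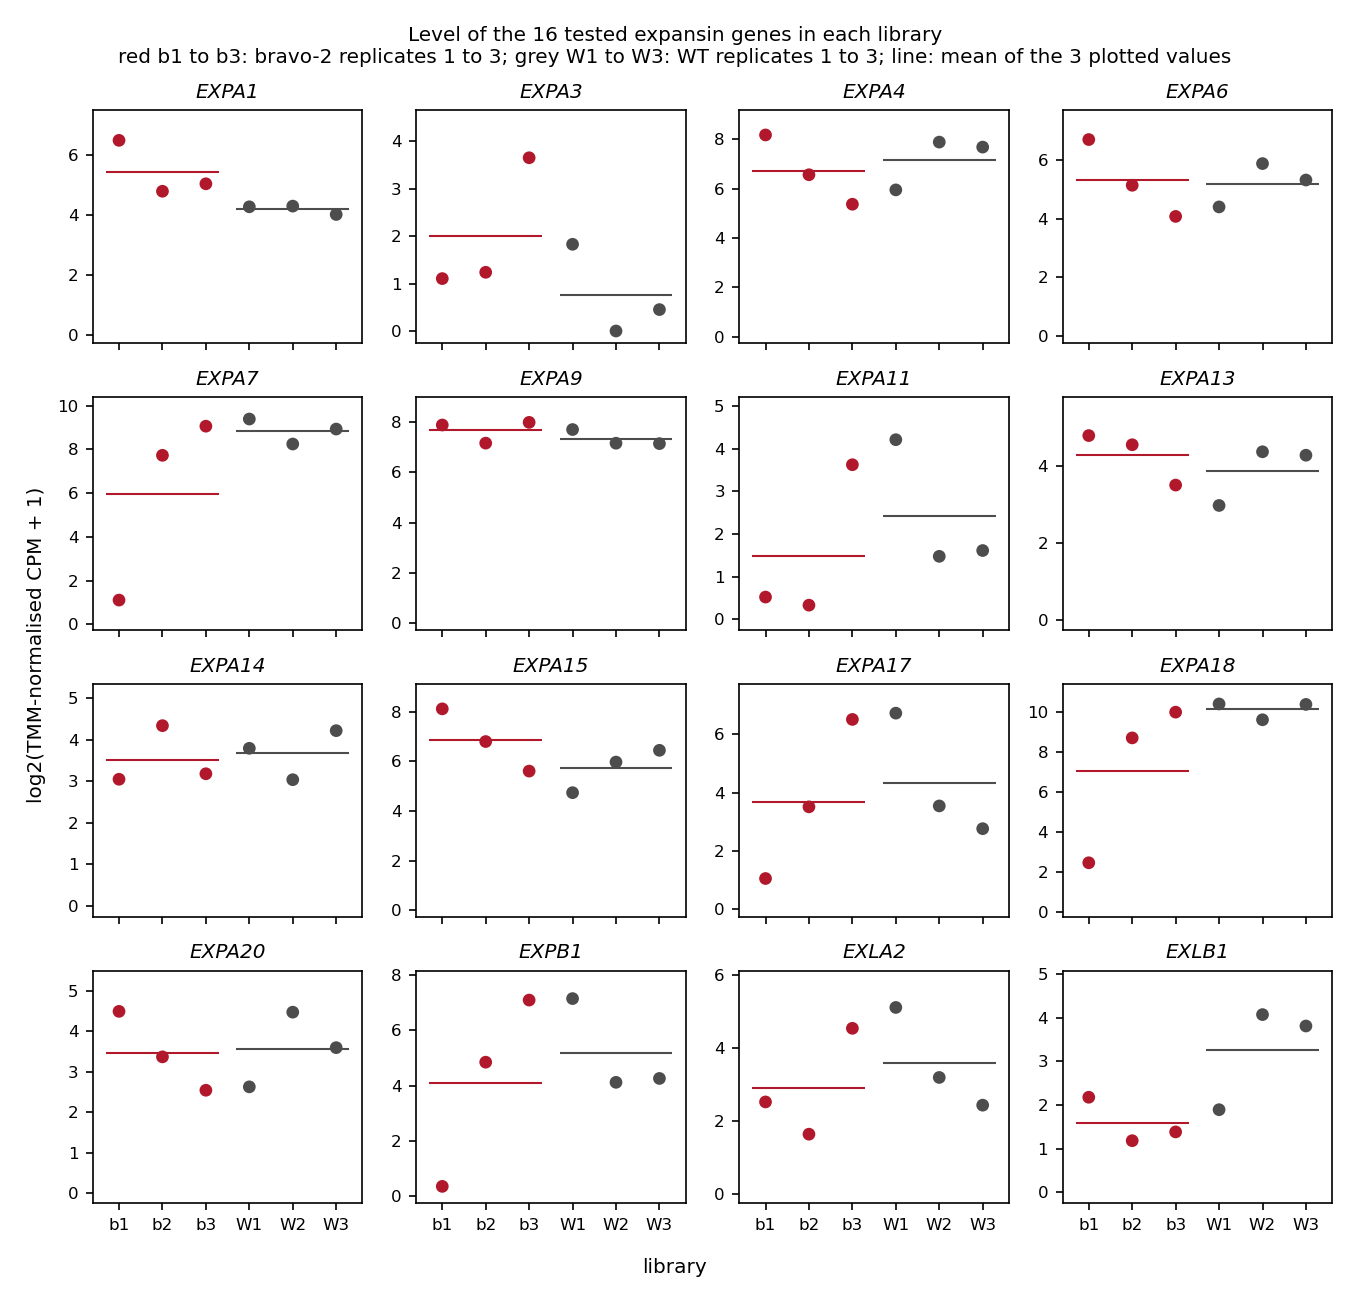
Each panel shows 1 of the 16 tested expansins as log2(TMM-normalised CPM + 1), with *bravo-2* replicates 1 to 3 in red at the left, WT replicates 1 to 3 in grey at the right and a line at the mean of the plotted values of each genotype. The vertical scale differs between panels. The red and grey points overlap in every panel except that of EXPA1, where *bravo-2* measured 26.8 to 89.0 CPM and WT 15.3 to 18.7 CPM.

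Another 6 of the 16 had *bravo-2* replicate 1 as their highest library, and EXPA1 was the one whose genotypes did not overlap. EXPA1, which is known from the loosening of guard cell walls, measured 89.0, 26.8 and 32.0 CPM in *bravo-2*, against 18.4, 18.7 and 15.3 CPM in WT, means of 49.3 ± 34.5 and 17.5 ± 1.91 CPM (SD, n = 3 each). All 3 *bravo-2* libraries were above all 3 WT libraries, as for 265 of all genes tested (1.68%), while no expansin had all *bravo-2* values below those of WT, as 313 genes did (1.99%). Its log2 fold change was 1.50 (SE 0.54, unadjusted p = 0.0268 in edgeR, exact permutation p = 0.10). It was between 0.75, without *bravo-2* replicate 1, and 1.79 with each library left out. WOX5, the gene whose promoter marked the sorted cells, measured 447, 121 and 97.1 CPM in *bravo-2*, against 80.8, 262 and 375 CPM in WT. Like EXPA1 it was highest in *bravo-2* replicate 1, but its genotypes overlapped, and its part in the level of EXPA1 was not tested.

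EXPA15 measured 275, 110 and 47.7 CPM in *bravo-2*, against 25.7, 61.6 and 85.9 CPM in WT. *bravo-2* replicates 1 and 2 were above all WT libraries and replicate 3 was between WT replicates 1 and 2. Its log2 fold change was 1.32 (SE 0.74, exact permutation p = 0.40), and 0.45 without *bravo-2* replicate 1. EXPA15 was also the 1 expansin that passed in a limma test after the first component of the variation between replicates had been removed, at a log2 fold change of 1.12 (adjusted p = 0.0381), a setting in which 676 of all genes tested (4.3%) passed. That removal took away 78.7% of the variation between replicates, and the test made no allowance for it in its degrees of freedom.

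EXPA4, EXPA6, EXPA13 and EXPA20 shared the peak in *bravo-2* replicate 1, but in EXPA4, EXPA6 and EXPA20 WT replicates 2 and 3 were above the other 2 *bravo-2* libraries. EXPA4, the most abundant of these, measured 290, 94.0 and 40.5 CPM in *bravo-2*, against 61.0, 237 and 206 CPM in WT (log2 fold change -0.25, SE 0.82). EXPA6, which shares 77.6% of its coding bases with EXPA4, measured 103, 34.2 and 15.8 CPM in *bravo-2*, against 20.1, 57.8 and 38.8 CPM in WT (log2 fold change 0.39, SE 0.73). In both genes the 2 lowest libraries were *bravo-2* replicate 3 and WT replicate 1, the same 2 in which EXPA17 and EXPB1 were highest. Without *bravo-2* replicate 1 the values were -1.32 for EXPA4 and -0.64 for EXPA6. EXPA13 measured 26.9, 22.6 and 10.4 CPM in *bravo-2*, against 6.91, 19.8 and 18.6 CPM in WT (log2 fold change 0.40, SE 0.57), and its fold change was 0.087 without WT replicate 1 and 0.73 without *bravo-2* replicate 3. EXPA20 measured 21.5, 9.33 and 4.83 CPM in *bravo-2*, against 5.18, 21.2 and 11.1 CPM in WT (log2 fold change -0.07, SE 0.73, and between -0.82 and 0.55 with each library left out). It is overlapped on the opposite strand by the non-coding gene AT4G38215, which had 21 to 70 counts per library, and all 6 of its estimated counts were split values, so its level is uncertain.

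**Figure D4:**
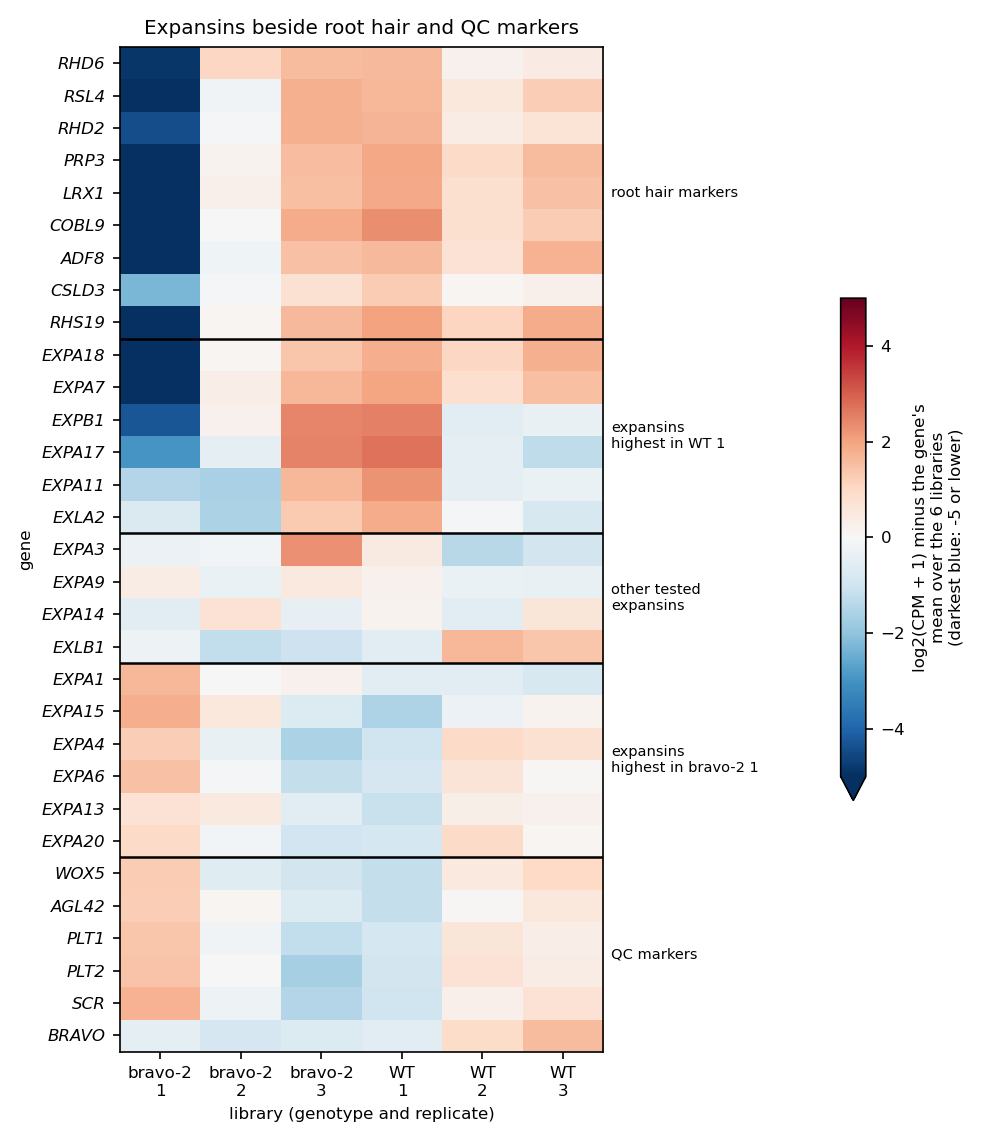
Each row is a gene and each column a library, *bravo-2* replicates 1 to 3 and then WT replicates 1 to 3, coloured by log2(CPM + 1) minus the gene's mean over the 6 libraries, with the colours saturating at a difference of 5. Rows show 9 root hair markers, the 16 tested expansins in 3 blocks by the library in which they were highest, and 6 QC markers. EXPA18 and EXPA7 are darkest blue in *bravo-2* replicate 1, where EXPA18 had 4.46 CPM, while EXPA15, at 275 CPM, is red there. The order of the blocks was set from these values and carries no test.

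The same 2 libraries that were low for EXPA4 and EXPA6 were low for QC markers. PLT1 and PLT2, which encode factors of the root stem cell niche, measured 244 and 56.0 CPM in *bravo-2* replicate 3 and 311 and 94.2 CPM in WT replicate 1, their 2 lowest libraries. The endodermal sum moved the other way in these 2 libraries, with 6 markers summing to 9.49, 16.7 and 170 CPM in *bravo-2* and to 186, 8.47 and 182 CPM in WT, although WT replicate 3 was high as well. CASP1 alone measured 99.6 CPM in *bravo-2* replicate 3 and 109 CPM in WT replicate 1. MYB36 differed, at 4.53, 4.49 and 6.44 CPM in *bravo-2*, all below its 15.5, 6.53 and 15.0 CPM in WT, as for 313 of all genes tested (1.99%). Markers of the lateral root cap and columella (4 genes) summed to 102, 63.9 and 72.0 CPM in *bravo-2* and to 159, 157 and 97.2 CPM in WT, and those of stele and xylem (5 genes) to 112, 118 and 303 CPM in *bravo-2* and to 345, 172 and 146 CPM in WT. Non-hair epidermis (2 genes) summed to 4.82, 61.1 and 48.3 CPM in *bravo-2* and to 70.0, 19.3 and 54.0 CPM in WT, and the 1 cortex marker, CO2, measured 47.8, 9.67 and 3.60 CPM in *bravo-2* and 18.8, 20.2 and 19.5 CPM in WT. Of the 33 markers 28 were tested and 0 had an adjusted p under 0.05 in edgeR, and VND6 of the xylem was at 2 counts or fewer in every library. The part of these markers in the levels of any expansin was not tested.

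EXPA9 and EXLB1 followed neither pattern. EXPA3 was highest in *bravo-2* replicate 3 and next in WT replicate 1, the libraries that led in the reverse order for EXPA17 and EXPB1. EXPA9 was the steadiest of the abundant expansins, at 233, 141 and 250 CPM in *bravo-2* against 205, 141 and 139 CPM in WT. Its libraries differed 1.78-fold within *bravo-2* and 1.48-fold within WT, and the log2 fold change of 0.36 (SE 0.46, exact permutation p = 0.20) stayed between 0.21 and 0.61 with each library left out. EXPA3 was near the floor of the test, at 1.15, 1.36 and 11.6 CPM in *bravo-2* against 2.55, 0 and 0.367 CPM in WT, with a log2 fold change of 2.26 (SE 1.54). Without *bravo-2* replicate 3 it did not reach the filter, and without WT replicate 1 it was 4.59 (unadjusted p = 0.0438 in edgeR).

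EXLB1, the single expansin-like B gene, measured 3.52, 1.27 and 1.61 CPM in *bravo-2*, against 2.71, 15.8 and 13.0 CPM in WT. WT replicates 2 and 3 were above every *bravo-2* library, but WT replicate 1 was within the mutant range, as it was for BRAVO. Its log2 fold change was -2.29 (SE 0.83, unadjusted p = 0.0261 in edgeR, exact permutation p = 0.20), the lowest of the 16, and it stayed between -2.87 and -1.87 with each library left out. Without WT replicate 1 it was -2.71.

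The other 19 expansins were below the filter with all 6 libraries and were not tested in the main fit. EXPA10, which acts in leaf growth, had 85, 27 and 7 counts in *bravo-2* against 6, 17 and 8 in WT, with *bravo-2* replicate 1 highest as for EXPA1, which shares 79.7% of its coding bases. EXPA12 had 1, 2 and 44 counts in *bravo-2* against 80, 0 and 32 in WT, and EXPA8 had 0, 0 and 13 against 36, 2 and 22. EXLA1 was found in every library, at 19, 25 and 49 counts in *bravo-2* against 60, 40 and 30 in WT. Its neighbour EXLA3 on chromosome 3 had 0, 0 and 16 counts in *bravo-2* against 4, 5 and 0 in WT, and the beta-expansin EXPB3 had 19, 12 and 4 against 1, 19 and 34. EXPA16 was counted in 1 library, with 19 counts in *bravo-2* replicate 1 and 0 in the other 5.

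The rest were not detected. EXPA5, an expansin linked to brassinosteroid-promoted growth, had 1 count in WT replicate 3, and EXPA21 (AT5G39260) had 1 in *bravo-2* replicate 3. EXPA2, known from germinating seeds, EXPA19, which is annotated as a transcribed pseudogene, EXPA22 to EXPA26, EXPB2, EXPB4 and EXPB5 had 0 counts in all libraries, which allows up to 3 counts, or 0.208 to 0.273 CPM, in each. EXPA21 to EXPA26 lie side by side on chromosome 5, between 15726243 and 15740605 of TAIR10.1, on the minus strand. Their coding sequences are close enough that reads may be shared, with 97.7% of bases identical between EXPA22 and EXPA26 and 97.5% between EXPA23 and EXPA25, and the 1 estimated count of EXPA21 was a split value. Among expansins with counts the closest pairs were EXLA1 with EXLA3 (86.6%) and with EXLA2 (85.0%), whose longest identical stretches were 57 and 23 bases. The counts of all expansins except EXPA20 and EXPA21 were whole numbers in every library, within a tolerance of 0.005 counts. EXPA7 and EXPA18 overlap genes on the opposite strand as well, AT1G12570 and AT1G62978, which had at most 9 and 1 counts in a library.

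The proton pumps on which expansins depend were read from the same fit, as a list of the 11 AHA genes of the plasma membrane. Of these 8 were tested, 3 had log2 fold changes above 0 and 5 below, with a median of -0.08, and 0 had an adjusted p under 0.05 or an unadjusted p under 0.05 in edgeR, while in the limma test after removal of the first component, with no allowance in the degrees of freedom, 2 passed, AHA2 and AHA7, beside 676 of all genes (4.3%). AHA2, the main pump of the root, measured 92.9, 883 and 2309 CPM in *bravo-2*, against 2914, 806 and 900 CPM in WT (log2 fold change -0.49, SE 1.10). AHA7, which is known from root hairs, measured 6.47, 170 and 509 CPM in *bravo-2*, against 517, 235 and 395 CPM in WT (log2 fold change -0.74, SE 1.18). Both had their lowest value in *bravo-2* replicate 1 and their highest in WT replicate 1, as did EXPA7 and EXPA18. AHA1, a further major pump, was steadier, at 186, 297 and 417 CPM in *bravo-2* against 534, 268 and 231 CPM in WT. AHA11 measured 147, 82.6 and 45.8 CPM in *bravo-2* against 67.4, 111 and 102 CPM in WT, with its peak in *bravo-2* replicate 1 and its low in *bravo-2* replicate 3, as for EXPA4 and EXPA6.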

How the data were processed

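The data are RNA-seq libraries of cells sorted to obtain the QC, 3 of *bravo-2* and 3 of WT. According to the methods and labels, the authors trimmed reads with cutadapt, mapped them to TAIR10 with STAR and quantified Araport11 transcripts with RSEM, whose versions are not given in the sources used here. The deposited tables hold the expected count of each gene, which need not be whole because RSEM splits shared reads, its posterior standard deviation, and TPM, which the authors' RSEM run scaled by effective length. Whether counting used the strand is not given. No filter or batch correction was applied to them. Any pair of libraries differed at 22840 genes or more.

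Expected counts were rounded, and genes averaging 4 CPM or more in 1 genotype (15739 of 37336) were tested with TMM scaling (factors 0.814 to 1.27) and edgeR's quasi-likelihood test on genotype, adjusted by Benjamini-Hochberg over all genes tested. The smallest adjusted p of any gene was 0.326. NOISeq and ARSyN, with which the paper reports genes regulated by BRAVO, were not run. The outcomes here thus come from unlike methods and were not compared with the paper's. Removal of the first residual component from log2(CPM + 1), followed by limma, stood in for ARSyN. The other alternatives were RLE and upper quartile scaling, DESeq2, limma, no filter, 10 counts in every library, a block on the replicate number, a block on the leading digit of the title code, and each library left out. On data simulated with the dispersion estimated here edgeR did not recover the changed genes, so an absence of calls does not show an absence of change. DESeq2 made many false calls on those simulated data, so its calls here are not relied on. The simulation drew each gene independently, whereas 78.7% of the variation between replicates in these data lay in 1 component. It is therefore only a rough guide to either method here. The members, lists and tests were chosen with earlier results of these data known. The naming rule was to account for every member, with fold changes for those past the filter and counts for the rest, to name other genes from the pump and marker lists, and to print promoters of EXPA7 and EXPA18. The rule also asked for protein sequences, which are not used here. Sequences were read from RefSeq's TAIR10.1 and coding sequences aligned with Biopython 1.88. The software was R 4.3.3, edgeR 4.0.16, limma 3.58.1, DESeq2 1.42.0, Python 3.11.15, matplotlib 3.10.9, scipy 1.17.1, numpy 2.4.6 and pandas 2.3.3.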

Additional observations from a re-analysis of the deposited data

How the results depend on the processing

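The count of 0 expansins past the threshold held in every alternative except the removal of the first residual component with limma, where 1 passed (EXPA15, log2 fold change 1.12) with 2 proton pump genes and 676 of all genes. Over all genes the count was 13 with DESeq2 and 1 without a filter on low counts, and it was 0 without each of the 6 libraries. Of 235 values of single expansins under the alternatives 19 had the opposite sign, in 7 genes, all 7 of them with a library left out. EXPA20 was 0.049 with upper quartile scaling. With each library left out the values ran from -1.32 to 0.21 for EXPA4, from -0.64 to 0.83 for EXPA6, from -0.71 to 0.20 for EXPA14, from -2.85 to 2.08 for EXPA17, from -0.82 to 0.55 for EXPA20, from -2.09 to 1.69 for EXPB1 and from -2.17 to 0.66 for EXLA2. The other 9 tested expansins kept their sign in every alternative that gave a value. The median over the tested expansins ran from -0.32 with limma to 0.17 without *bravo-2* replicate 2, where 17 expansins were tested.

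Both genotypes have replicates 1, 2 and 3. After subtraction of the genotype mean, libraries sharing a number correlated at -0.72, -0.07 and -0.43 across genes, which are not independent replicates. With 78.7% of the variation between replicates in 1 component, these values cannot show whether the numbers pair the libraries. According to the paper, sorting was a confounding factor, for which ARSyN was applied. With the replicate number as a block, 0 expansins and 0 of all genes passed (at an unadjusted p under 0.05, 0 and 52), EXPA6 was -0.0024 and EXPB1 was 0.048. A block on the leading digit of the title code also gave 0 and 0 (unadjusted, 0 and 11). Only some of these digits occur in both genotypes, so that block leaves little from which to estimate error. The SE of EXPA1 was 1.67 with it, against 0.54 without a block, and its 0 was close to fixed in advance.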

Other observations

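A sixth beta-expansin, EXPB6 (AT1G65681), is not among the 35 genes. It had 3, 2 and 1 counts in *bravo-2* and 1, 0 and 0 counts in WT, no more than the smallest number taken as detected in any library.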
